A study of Mus musculus with 6 samples.

Results

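The genes of mitochondrial and peroxisomal fatty acid oxidation were followed in 3T3-L1, a cell line from mouse embryos whose fibroblast-like cells become fat cells in culture. The set holds 50 genes chosen by name from the biochemistry of the pathway, with earlier results of these data known. They came out of 54752 genes in each deposited table: 23 mitochondrial enzymes, 15 peroxisomal enzymes and transporters, and 12 peroxins, the proteins that build peroxisomes. All 50 had a row, and 49 had enough counts to be tested. RNA was sequenced from 3 libraries of 3T3-L1 preadipocytes and 3 libraries of 3T3-L1 adipocytes. The labels give both groups the strain C57BL/6J, the tissue embryo, the treatment None, and 1 medium entry, which names BCS, DMI and FBS. Neither the day of harvest nor the differentiation state of each medium is given in the sources used here, and because all 6 samples carry Adipocyte as source name, titles and cell type labels alone define the groups. Nothing in the labels says that the 3 libraries of a group came from separate cultures, so the p-values measure the spread between these libraries only, which may be technical.

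Fatty acids are broken down in 2 organelles. In mitochondria, carnitine carries long acyl chains across the inner membrane. Carnitine palmitoyltransferase I of the outer membrane, encoded by Cpt1a and Cpt1b, makes the acylcarnitine and is inhibited by malonyl-CoA. Cpt2 turns the acylcarnitine back into acyl-CoA inside. A cycle of dehydrogenation, hydration, a further dehydrogenation and thiolysis then shortens the chain, and the electrons of the dehydrogenases pass through the electron transfer flavoprotein to the respiratory chain. Peroxisomes shorten very long and branched chains and hand the shorter products on as carnitine esters. White fat cells are best known for storing fatty acids, while they also hold this pathway.

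The libraries held 22496486 to 26314076 expected counts each. The 6 adipocyte markers checked (among them Adipoq, Fabp4 and Plin1) were all higher in adipocytes, with a summed level of 17.9 to 18.7 CPM (counts per 1000000 of the TMM-scaled library size) in preadipocyte and 16830 to 21240 CPM in adipocyte libraries. All 6 preadipocyte or fibroblast markers were lower, from 22630 to 25780 CPM down to 1664 to 2132 CPM, so they were still present. Markers of macrophages summed to 1.86 to 2.40 CPM in preadipocyte and 0.952 to 1.68 CPM in adipocyte libraries, those of endothelium to at most 0.909 CPM and those of epithelium to at most 1.30 CPM. Of 4 brown adipocyte markers, Cox8b and Cidea were higher, while Ucp1 had 0 counts in preadipocytes and 1 in adipocytes and Dio2 had 3 and 1. That list summed to at most 0.0790 CPM in preadipocyte and 72.1 to 103.0 CPM in adipocyte libraries, most of it Cox8b. Its part in the results was not tested. In bulk RNA, fewer cells of a type and less RNA per cell cannot be told apart.

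Of the 49 tested members, 46 were higher in adipocytes and 2 were lower, at an adjusted p of 0.05 (edgeR quasi-likelihood F-test, Benjamini-Hochberg over all 14726 tested genes). Over all tested genes 35.7% were higher and 37.9% lower. The median log2 fold change was 2.16 for the members and -0.06 for all tested genes. The CPM values of the groups did not overlap, in either direction, for 48 of the 49 members, against 76.5% of all tested genes. The TPM values did not overlap for 45 members, against 11745 of all 14726 tested genes. Among those 45, Cpt1a, Cpt1c and Decr2 had lower TPM in adipocytes. Of the members 55.1% were at least 4-fold higher, against 9.53% of all tested genes. Because the members were chosen with earlier results of these data known, these contrasts describe the set and do not test it. Of the 4 members that were not called higher, Cpt1a and Cpt1c were lower, Cpt1b was not called, and Slc27a2 was too low to test. The plot of all members by library shows both groups.

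**Figure D1:**
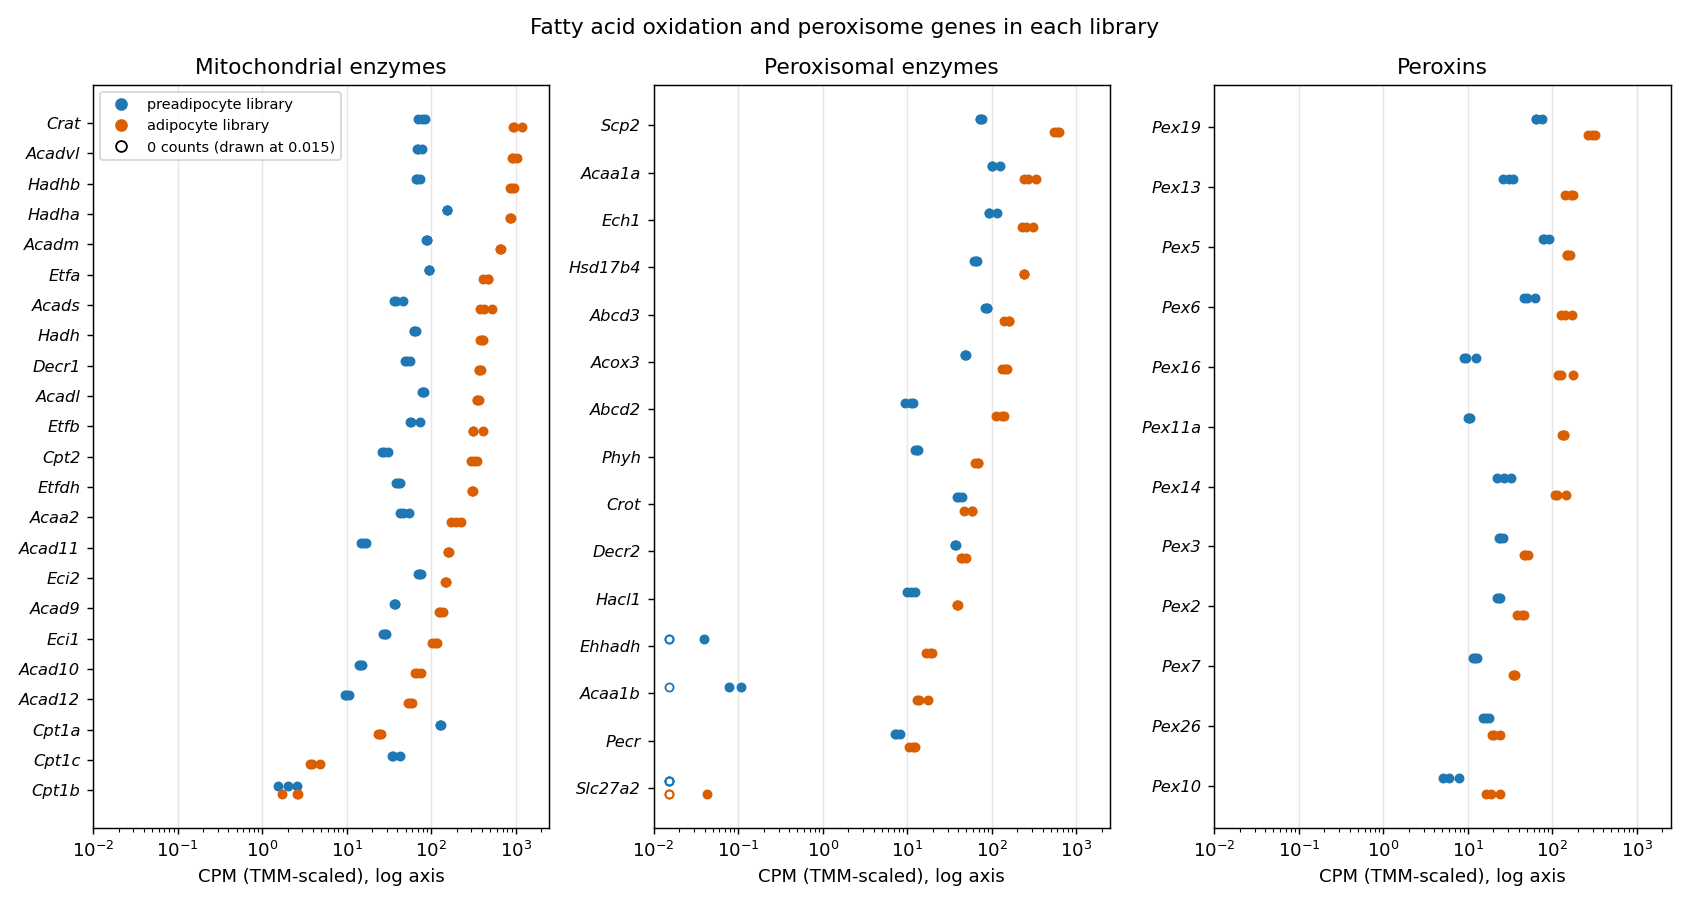
CPM of each of the 50 genes (log axis) in the 3 preadipocyte (blue) and 3 adipocyte (orange) libraries, in panels for mitochondrial enzymes, peroxisomal enzymes and peroxins, with open circles for 0 counts. The orange points lie to the right of the blue ones for 46 of the tested genes, to the left for Cpt1a and Cpt1c, and overlap with them for Cpt1b.

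The 3 classes differed in how far they moved. Mitochondrial enzymes had a median log2 fold change of 2.47, with 20 of 23 higher and 2 lower. Peroxisomal enzymes had a median of 1.68, with all 14 tested members higher under TMM, of which Crot and Decr2 changed sign with limma on log2(TPM + 1). Peroxins had a median of 1.59, with all 12 higher under TMM, of which Pex26 changed sign in the same way. At least 4-fold rises were fitted for 17 of 23 mitochondrial enzymes, 5 of 14 tested peroxisomal enzymes and 5 of 12 peroxins. Per length, the mitochondrial enzymes summed to 1380 ± 11.1 TPM in preadipocytes and 6034 ± 138.5 TPM in adipocytes (SD, n = 3). The peroxisomal enzymes summed to 636.1 ± 21.2 and 1630 ± 80.1 TPM, and the peroxins to 308.9 ± 11.4 and 868.8 ± 57.3 TPM (SD, n = 3). The differences between the classes were not tested.

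**Figure D2:**
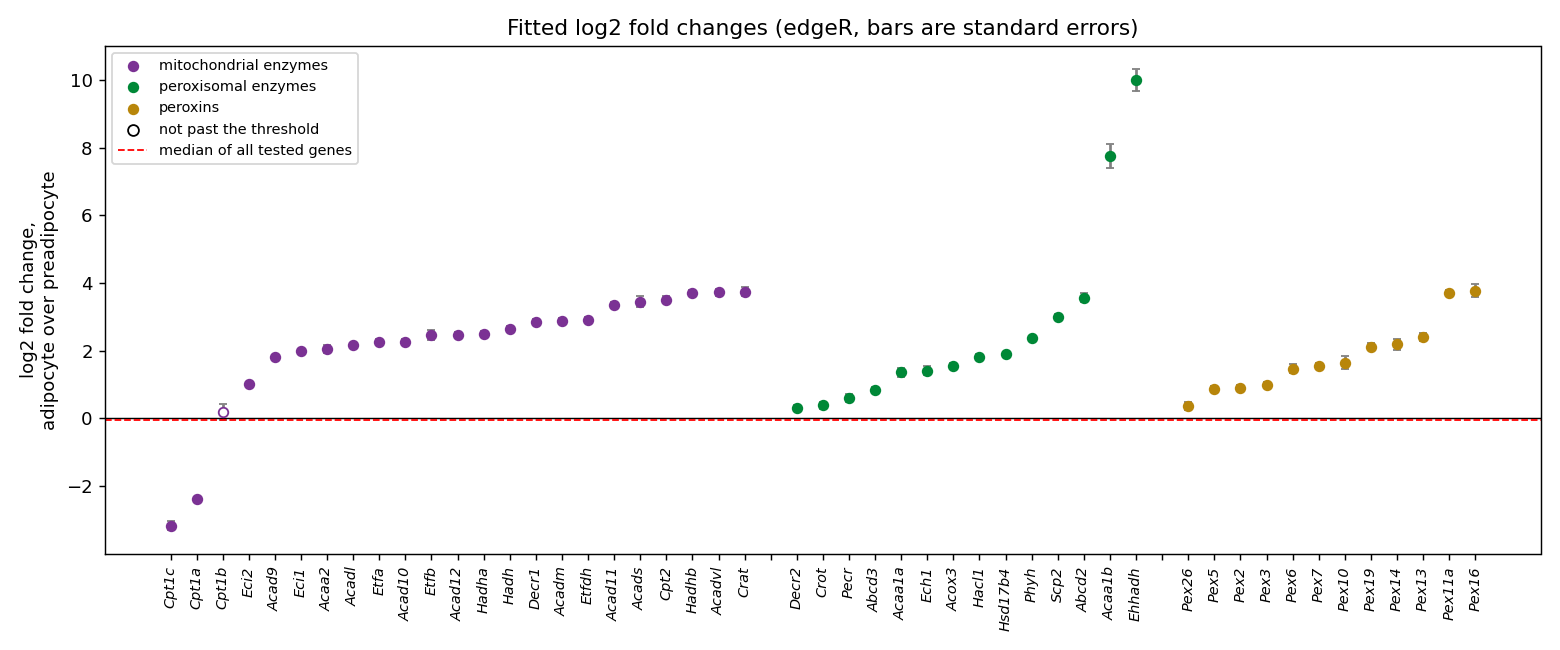
Fitted log2 fold change of adipocytes over preadipocytes for the 49 tested members, sorted within each class, with standard errors from edgeR. Filled points passed the threshold, the open point is Cpt1b, and the dashed line is the median of all 14726 tested genes at -0.06. Ehhadh and Acaa1b, whose fitted values rest on 1 and 5 preadipocyte counts, stand above the others, and Cpt1a and Cpt1c stand below 0.

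Cpt1a and Cpt1c moved against the other called genes of the mitochondrial class. Cpt1a, the form of carnitine palmitoyltransferase I best known from liver, measured 130.7, 128.1 and 125.7 CPM in the preadipocyte libraries and 24.2, 25.5 and 23.5 CPM in the adipocyte libraries. Its log2 fold change was -2.39 (SE 0.073, edgeR adjusted p = 1.18e-08). Cpt1c, a form known from the endoplasmic reticulum of neurons, measured 42.5, 35.0 and 34.2 CPM in preadipocytes and 4.80, 3.64 and 3.89 CPM in adipocytes. Its log2 fold change was -3.17 (SE 0.14, edgeR adjusted p = 9.76e-08). The groups were far apart for both genes. The summed level of the 5 neuron markers went the same way, from 20 to 22 CPM in preadipocyte to 4.77 to 6.06 CPM in adipocyte libraries. Map2 led that list and fell, Snap25 rose from 0 counts, and Rbfox3 had 0 counts in both groups. Whether the fall of Cpt1c is tied to that list was not tested.

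Cpt1b, the form best known from muscle, stayed low in both groups. It measured 2.58, 2.02 and 1.56 CPM in preadipocytes and 2.59, 1.73 and 2.64 CPM in adipocytes, so the groups overlapped (log2 fold change 0.18, SE 0.25, edgeR adjusted p = 0.52). The direction was not fixed either, since the log2 fold change was -0.14 with total counts in place of TMM. Its count is uncertain, because 79.7% of the 31-mers of its transcripts also occur in the overlapping transcript Gm44502, which itself measured 0.35 ± 0.308 CPM in preadipocytes and 0.280 ± 0.485 CPM in adipocytes (SD, n = 3). The 5 skeletal muscle markers summed to 0.254 to 0.587 CPM in preadipocyte and 1.30 to 2.21 CPM in adipocyte libraries. Acta1 led that list and rose from 7 to 104 counts (log2 fold change 4.03, SE 0.44, edgeR adjusted p = 3.33e-05), and Myod1, Myog and Ckm had 0 counts in all 6 libraries. A part of that list in the Cpt1b values was not tested.

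Per length, the 3 Cpt1 genes together gave 87.7, 86.1 and 83.4 TPM in preadipocytes and 11.2, 10.6 and 12.2 TPM in adipocytes, a 7.55-fold lower mean. Cpt1a supplied 66.4% ± 2.73 of that sum in preadipocytes and 66.7% ± 7.04 in adipocytes (SD, n = 3), so it remained the most abundant of the 3 in every library. Cpt1c, the endoplasmic reticulum form, supplied 31.35% ± 2.4 and 20.4% ± 3.7 (SD, n = 3), so the sum does not describe the outer membrane step alone. The share from Cpt1b went from 2.26% ± 0.35 to 12.8% ± 3.60 (SD, n = 3). That difference of 10.6 percentage points had an exact two-sided permutation p of 0.1 over the 6 libraries, the smallest that 3 against 3 can give. The share was higher in adipocytes while the level of Cpt1b itself did not pass its test and the other 2 forms fell.

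The inner acyltransferase rose instead. Cpt2 measured 30.9, 26.4 and 27.3 CPM in preadipocytes and 345.5, 321.3 and 294.6 CPM in adipocytes (log2 fold change 3.51, SE 0.10, edgeR adjusted p = 9e-09). In TPM, Cpt2 stood at 0.290 ± 0.0059 of the summed Cpt1 genes in preadipocytes and at 16.9 ± 1.84 times them in adipocytes (SD, n = 3). That sum includes Cpt1c, so the ratio does not compare the inner and outer membrane steps alone. Crat, the carnitine acetyltransferase that handles short acyl groups in mitochondria and peroxisomes, measured 84.9, 69.1 and 77.2 CPM in preadipocytes and 1197, 958.5 and 934.5 CPM in adipocytes. Its log2 fold change of 3.74 (SE 0.13, edgeR adjusted p = 2.54e-08) was the highest fitted value among the mitochondrial enzymes, within 1 standard error of those of Acadvl and Hadhb.

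**Figure D3:**
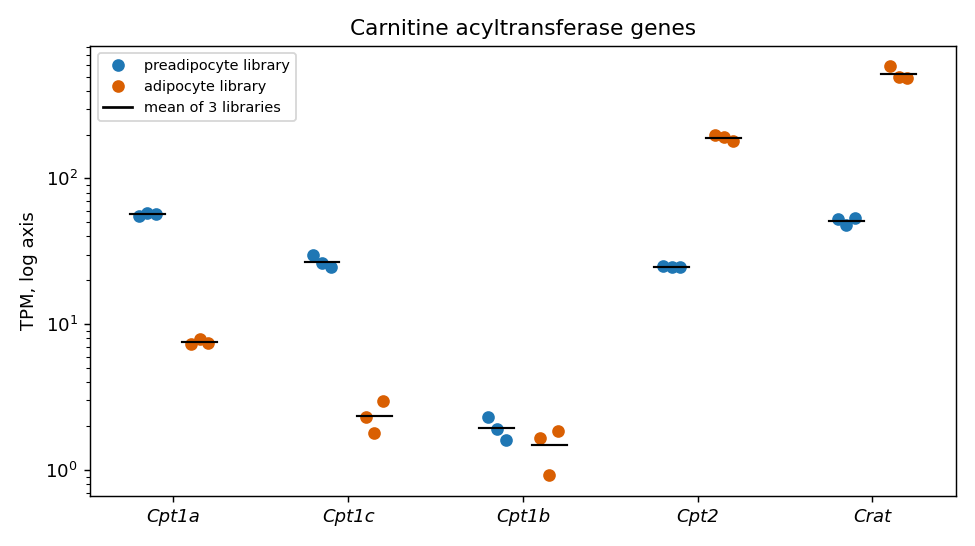
TPM (log axis) of the 5 carnitine acyltransferase genes in each library, with bars at the means of 3 libraries. Cpt1a and Cpt1c lie lower in adipocytes, the groups overlap for Cpt1b, and Cpt2 and Crat lie higher in adipocytes.

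All 8 acyl-CoA dehydrogenase genes rose, with log2 fold changes from 1.81 to 3.72 and a median of 2.68. Of these flavoenzymes, those of Acadvl, Acadl, Acadm and Acads open each round of the cycle and differ in the chain length they take. Acadvl, for very long chains, measured 78.3, 69.8 and 68.0 CPM in preadipocytes and 1031, 928.3 and 895.2 CPM in adipocytes (log2 fold change 3.72, SE 0.10, edgeR adjusted p = 6.12e-09). Every adipocyte library lay over 10 times above every preadipocyte library. Of its 31-mers, 33.2% are shared with Dvl2, which overlaps it on the opposite strand. Dvl2 went the other way, from 68.5 ± 5.68 to 31.5 ± 1.63 CPM (SD, n = 3).

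Acads, for short chains, rose by 3.45 on the log2 scale (SE 0.15), Acadm, for medium chains, by 2.88 (SE 0.072), and Acadl, for long chains, by 2.16 (SE 0.072). In adipocytes the order per length was Acadvl at 614.7 ± 30.1 TPM, Acadm at 578.5 ± 44.9 TPM, Acads at 337.3 ± 49.6 TPM and Acadl at 262.6 ± 9.01 TPM (SD, n = 3). The libraries of Acadvl and Acadm overlapped, and those of Acadl lay below the others. In preadipocytes Acadm was the highest of the 4 at 110.7 ± 16.0 TPM and Acads the lowest at 45.3 ± 5.46 TPM (SD, n = 3). Acad9, which also serves in the assembly of respiratory complex I, rose by 1.81 (SE 0.074), the lowest of the 8. Acad11 rose by 3.34 (SE 0.083), from 9.53 ± 0.28 to 65.6 ± 1.19 TPM (SD, n = 3).

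Acad10 and Acad12, on chromosome 5, lie in tandem on the same strand with 2087 bases between them (GRCm38, GENCODE M21). They moved by like amounts: Acad10 rose by 2.26 (SE 0.089) from 14.6 ± 0.54 to 69.8 ± 5.42 CPM, and Acad12 rose by 2.47 (SE 0.085) from 10.1 ± 0.48 to 55.9 ± 2.83 CPM (SD, n = 3). Of their 31-mers, 22.9% of Acad10 occur in Acad12 and 21.4% of Acad12 in Acad10, so how their shared reads were divided bears on both values.

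The trifunctional protein, which carries out the later steps for long chains on the inner membrane, is built from the alpha subunit Hadha and the beta subunit Hadhb. Hadha measured 153.0, 152.1 and 155.0 CPM in preadipocytes and 857.3, 865.7 and 872.4 CPM in adipocytes (log2 fold change 2.50, SE 0.070, edgeR adjusted p = 7.84e-09). Hadhb measured 65.6, 74.9 and 68.0 CPM in preadipocytes and 851.5, 944.7 and 906.8 CPM in adipocytes (log2 fold change 3.70, SE 0.092, edgeR adjusted p = 4.25e-09). The subunits did not move by the same amount. The ratio of Hadhb to Hadha in TPM was 0.564, 0.701 and 0.589 in preadipocytes, below 1 in each, and 1.44 to 1.55 in adipocytes. For Hadhb, 23.7% of the 31-mers occur in other genes, mostly in Gm13910, which had 0 counts in every library.

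Hadha and Hadhb are transcribed away from each other, with 85 bases between the gene models on chromosome 5. Their promoter windows share 228 bases, and the Hadhb window, chr5:30155003-30155302 (plus strand), is shown because it holds all of the shared bases. The windows follow RefSeq starts rather than these gene models, and the RefSeq start of Hadha lies outside the window shown.
Hadhb: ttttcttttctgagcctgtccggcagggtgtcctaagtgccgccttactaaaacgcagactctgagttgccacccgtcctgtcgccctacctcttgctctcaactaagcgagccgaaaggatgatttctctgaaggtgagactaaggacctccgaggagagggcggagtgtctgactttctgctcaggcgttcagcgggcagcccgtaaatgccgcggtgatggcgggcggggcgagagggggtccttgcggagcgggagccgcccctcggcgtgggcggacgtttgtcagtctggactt
The sequence runs 5′ to 3′ from 250 bases before to 50 after the start of the gene, from RefSeq on GRCm38.p6. Neither of the receptor elements described for Etfa was found in it, which says only that those letters are not in this window.

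The remaining enzymes of the mitochondrial spiral rose as well. Hadh, the hydroxyacyl-CoA dehydrogenase for shorter chains, rose by 2.64 (SE 0.077), and the thiolase gene Acaa2 rose by 2.05 (SE 0.13). Of the auxiliary enzymes for unsaturated chains, the dienoyl-CoA reductase gene Decr1 rose by 2.86 (SE 0.087) and the enoyl-CoA isomerase genes Eci1 and Eci2 rose by 1.97 (SE 0.083) and 1.02 (SE 0.067). Eci2, whose product is found in peroxisomes too, had the lowest rise among the mitochondrial enzymes that passed. It measured 75.1, 74.1 and 70.8 CPM in preadipocytes and 151.2, 149.1 and 144.8 CPM in adipocytes.

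The 3 genes that pass electrons to the respiratory chain rose together, by 2.25 (SE 0.081) for Etfa, 2.47 (SE 0.15) for Etfb and 2.90 (SE 0.078) for the oxidoreductase gene Etfdh. Etfa and Etfb encode the subunits of the electron transfer flavoprotein. Etfb had the highest mean per length of all members in adipocytes, at 787.1, 606.5 and 597.4 TPM, above 195.9, 158.8 and 160.6 TPM in preadipocytes. That rank rests on adipocyte library 1. In adipocyte libraries 2 and 3 Hadhb stood higher, at 651.1 and 640.4 TPM. In adipocyte library 3 Acadm and Scp2 were higher too, at 627.8 and 628.2 TPM. Of the 31-mers of Etfb, 49.9% occur in another gene, mostly in the overlapping Gm45233, which measured at most 0.277 CPM in the group means.

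Etfa is shown because it was the only member with a match to the direct repeat read by PPAR and RXR receptors. The element searched was AGGTCA repeated in the same direction with 1 base between, on both strands, with at most 2 mismatches. It was found in 1 of the 45 windows of the 41 members that have one and in 3.86% of all 32851 promoters in the table, and the match in Etfa (chr9:55512194-55512493, minus strand) is in capitals.
Etfa: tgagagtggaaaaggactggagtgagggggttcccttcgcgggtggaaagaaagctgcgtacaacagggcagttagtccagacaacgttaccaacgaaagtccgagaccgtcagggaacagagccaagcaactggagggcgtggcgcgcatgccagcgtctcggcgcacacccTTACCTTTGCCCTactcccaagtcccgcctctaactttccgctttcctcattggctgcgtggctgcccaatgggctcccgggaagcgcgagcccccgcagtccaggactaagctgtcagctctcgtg
The match lies on the opposite strand of this window, with 2 mismatches, and describes its letters only, not a site in use. The extended element of the estrogen-related receptors, TNAAGGTCA without mismatches, was found in 1.28% of all promoters and in 0 of the 45 windows of members.

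Peroxisomal enzymes held the largest fitted rises and also the smallest. Ehhadh, the bifunctional enzyme of the inducible peroxisomal pathway, had 1 count in the 3 preadipocyte libraries together and 1236 in the adipocyte libraries. The ratio of the groups was 1433, with a 95% exact Poisson interval of 257.1 to 56580 for the low count, which covers counting error only. Its levels in adipocytes were 18.5, 19.7 and 16.7 CPM. The other bifunctional enzyme gene, Hsd17b4, was already present in preadipocytes. It measured 66.3, 61.6 and 65.1 CPM there and 242.4, 239.3 and 238.7 CPM in adipocytes (log2 fold change 1.90, SE 0.070, edgeR adjusted p = 3.26e-08). Per length, Hsd17b4 at 122.8 ± 2.59 TPM stayed far above Ehhadh at 8.30 ± 0.59 TPM in adipocytes (SD, n = 3).

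The peroxisomal thiolase genes showed the same contrast. Acaa1b had 5 counts in preadipocytes and 1004 in adipocytes, with 0.0783, 0 and 0.109 CPM in the former and 17.4, 13.1 and 13.9 CPM in the latter (log2 fold change 7.75, SE 0.35, edgeR adjusted p = 9.9e-08). Acaa1b and Ehhadh had so few preadipocyte counts that both passed the count filter only through the adipocyte libraries. Their direction was therefore all but fixed in advance, and both are counted among the members called higher. Acaa1a measured 125.3, 101.9 and 99.5 CPM in preadipocytes and 330.1, 266.5 and 243.1 CPM in adipocytes (log2 fold change 1.36, SE 0.14, edgeR adjusted p = 1.94e-05). Acaa1b supplied 5.74% ± 0.39 of the summed TPM of both genes in adipocytes (SD, n = 3). Of the 31-mers of Acaa1b, 40.0% occur in Acaa1a, so its low counts depend on how the authors' model divided shared reads. The 5 hepatocyte markers, a list relevant to Ehhadh and Acaa1b, summed to 0.157 to 0.290 CPM in preadipocyte and 23.5 to 37.7 CPM in adipocyte libraries. Cyp2e1 led that list, while Alb and Ttr had 0 counts in all 6 libraries, and a part of that list in the rise of both genes was not tested.

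Transport into the peroxisome rose unevenly. Abcd2, a transporter of very long chain acyl-CoA, measured 9.47, 11.8 and 11.2 CPM in preadipocytes and 111.5, 139.2 and 133.5 CPM in adipocytes (log2 fold change 3.57, SE 0.12, edgeR adjusted p = 2.29e-08). Abcd3, a transporter of the same family that takes branched and dicarboxylic chains, rose by 0.84 (SE 0.079). Per length, Abcd2 went from 7.33 ± 0.75 TPM to 57.8 ± 0.54 TPM and Abcd3 from 50.2 ± 3.35 to 63.2 ± 5.97 TPM (SD, n = 3). The 2 genes overlapped in adipocytes and lay far apart in preadipocytes. Slc27a2, an activating enzyme of very long chains best known from liver, had 0 counts in preadipocytes and 1 in adipocytes, and both groups lay under the floor of 3 counts.

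Scp2, whose locus encodes a thiolase for branched chains and a lipid carrier protein, was the most abundant peroxisomal member per length. It measured 72.5, 76.4 and 72.9 CPM in preadipocytes and 552.6, 587.0 and 624.0 CPM in adipocytes (log2 fold change 2.99, SE 0.083, edgeR adjusted p = 7.01e-09). A processed copy, Scp2-ps2, shares 33.4% of its 31-mers and measured 1.39 ± 0.80 CPM in adipocytes (SD, n = 3). Ech1, a dienoyl-CoA isomerase found in peroxisomes and mitochondria, was next per length in adipocytes at 306.9 ± 39.3 TPM (SD, n = 3). It measured 113.9, 91.7 and 91.7 CPM in preadipocytes and 307.7, 255.5 and 227.6 CPM in adipocytes (log2 fold change 1.41, SE 0.13).

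Phyh, which starts the alpha oxidation of phytanic acid, rose by 2.37 (SE 0.080) and Hacl1, the lyase of the same route, by 1.81 (SE 0.097). Acox3, an oxidase for branched chains, rose by 1.55 (SE 0.074). Its preadipocyte libraries lay within 48.8 to 48.9 CPM of each other, and adipocyte libraries 1 to 3 measured 150.6, 144.7 and 133.5 CPM.

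At the low end stood Crot, Decr2 and Pecr, of which Crot and Decr2 lost their calls with upper-quartile factors or total counts. Crot, which makes carnitine esters of medium chains for export from the peroxisome, measured 38.8, 45.1 and 41.5 CPM in preadipocytes and 46.6, 57.9 and 58.8 CPM in adipocytes. Its log2 fold change was 0.38 (SE 0.11, edgeR adjusted p = 0.011) with TMM and 0.06 when total counts were used, and limma on log2(TPM + 1) gave -0.15. Decr2, the peroxisomal dienoyl-CoA reductase, measured 36.4, 38.0 and 37.2 CPM in preadipocytes and 43.8, 50.2 and 44.3 CPM in adipocytes. Its log2 fold change was 0.31 (SE 0.082, edgeR adjusted p = 0.0078) with TMM, but it was lower at -0.24 with limma on log2(TPM + 1) (limma adjusted p = 0.035). Pecr, an enoyl-CoA reductase, measured 8.10, 7.23 and 7.33 CPM in preadipocytes and 12.2, 10.6 and 11.6 CPM in adipocytes, a log2 fold change of 0.61 (SE 0.11). It was called higher in 13 of 15 alternatives and not with limma on TPM, where it was 0.10. Taken gene by gene over all tested genes, the median change of the log2 fold change relative to TMM was -0.13 with upper-quartile factors, -0.33 when total counts were used and -0.48 under limma on log2(TPM + 1).

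**Figure D4:**
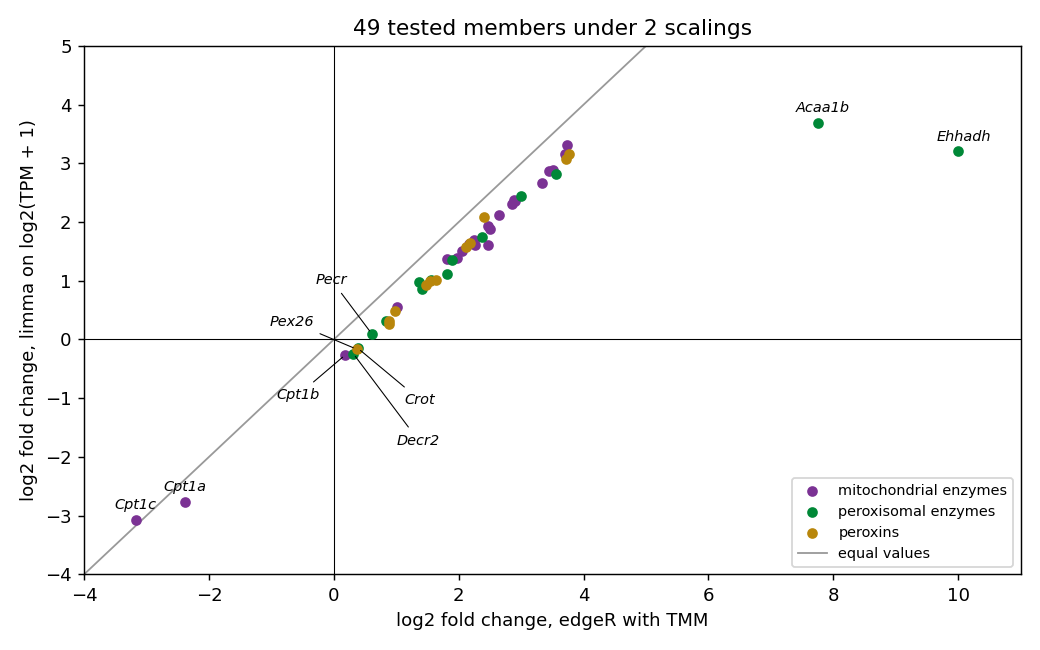
Log2 fold changes of the 49 tested members from edgeR with TMM (horizontal) and from limma on log2(TPM + 1) (vertical), with a line of equal values. Nearly all points lie below the line, Crot, Decr2, Pex26 and Cpt1b change sign between the axes, Pecr falls to 0.10, and the added 1 TPM pulls Ehhadh and Acaa1b far down.

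All 12 peroxins rose, with log2 fold changes from 0.36 to 3.77, and the 1 at the low end, Pex26, changed sign with limma on log2(TPM + 1). Pex3, Pex16 and Pex19 place proteins in the peroxisomal membrane. Pex16, on the endoplasmic reticulum and the peroxisome, measured 12.3, 9.48 and 9.04 CPM in preadipocytes and 177.4, 127.3 and 117.2 CPM in adipocytes. It rose by 3.77 (SE 0.19, edgeR adjusted p = 2.18e-07). Pex19, the soluble carrier of membrane proteins, measured 74.7, 63.8 and 63.6 CPM in preadipocytes and 323.5, 291.7 and 262.6 CPM in adipocytes, and rose by 2.12 (SE 0.11, edgeR adjusted p = 2.12e-07). Pex3, the docking partner of Pex19, rose by 0.98 (SE 0.081). Adipocyte library 1 held the highest value of Pex16 and Pex19 within its group, and no preadipocyte library came near an adipocyte one.

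Pex11a, which elongates peroxisomes before they divide, measured 10.6, 10.4 and 9.91 CPM in preadipocytes and 137.1, 137.9 and 130.8 CPM in adipocytes. The log2 fold change of 3.71 (SE 0.079, edgeR adjusted p = 2.57e-09) rested on libraries that lay close together within each group. The docking genes for matrix proteins followed. Pex13 measured 26.3, 34.1 and 31 CPM in preadipocytes and 139.6, 165.3 and 176.6 CPM in adipocytes (log2 fold change 2.40, SE 0.13), and Pex14 rose by 2.19 (SE 0.16).

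The import receptors and the machinery that recycles them rose too, with Pex26 again turning sign under limma on log2(TPM + 1). Pex5, the receptor of most matrix enzymes, measured 91.7, 78.3 and 80.2 CPM in preadipocytes and 161.6, 149.2 and 149.6 CPM in adipocytes, a rise of 0.88 (SE 0.084). Pex7, the receptor of the second targeting signal, rose by 1.54 (SE 0.082). The ubiquitin ligase genes Pex2 and Pex10 rose by 0.89 (SE 0.090) and 1.64 (SE 0.19). Pex6, an ATPase that pulls the receptors out of the membrane, rose by 1.47 (SE 0.14). Pex26, its membrane anchor, measured 17.7, 16.4 and 15.1 CPM in preadipocytes and 23.7, 19.2 and 20.4 CPM in adipocytes. Its log2 fold change was 0.36 (SE 0.11, edgeR adjusted p = 0.015) with TMM and 0.04 when total counts were used, limma on log2(TPM + 1) gave -0.17, and its call was also lost without preadipocyte replicate 3 (0.30, edgeR adjusted p = 0.073).

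The make-up of the peroxin transcripts therefore shifted. Pex19, Pex16 and Pex11a together supplied 30.6% ± 0.81 of the summed peroxin TPM in preadipocytes and 53.0% ± 2.15 in adipocytes (SD, n = 3), and the groups did not overlap. Pex19 alone held 21.7% ± 0.54 and 23.3% ± 0.73 (SD, n = 3), so the shift came from Pex16 and Pex11a. The ratio of summed peroxin to summed peroxisomal enzyme TPM was 0.486 ± 0.0021 in preadipocytes and 0.533 ± 0.016 in adipocytes (SD, n = 3).

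**Figure D5:**
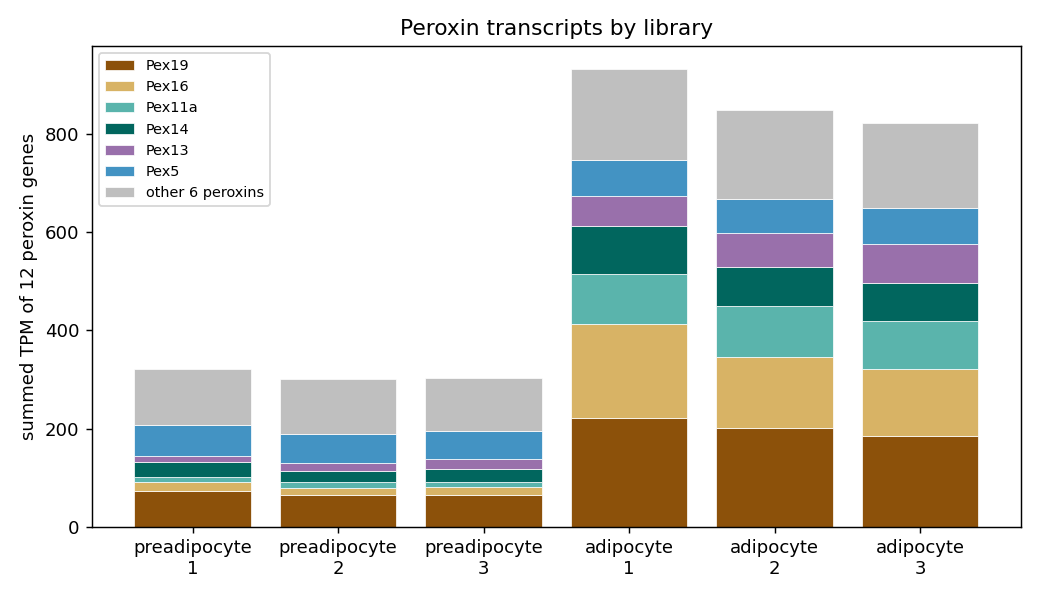
Summed TPM of the 12 peroxin genes in each library, stacked by gene, with the 6 less abundant ones pooled. The bars reach 300.9 to 321.9 TPM in preadipocyte and 823.6 to 933.3 TPM in adipocyte libraries, and the Pex16 and Pex11a segments take a larger part of the adipocyte bars.

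Other genes of the pathway were listed apart from the members. Of 64 such genes, 63 had a row and 54 were tested, of which 44 were higher, 6 lower and 4 not called, with a median log2 fold change of 1.68. Acsl1, which activates long chain fatty acids, had the largest rise, from 9.97 ± 0.84 to 5827 ± 130.9 CPM (SD, n = 3; log2 fold change 9.19, SE 0.11, edgeR adjusted p = 5.56e-10). Acox2, a peroxisomal oxidase of branched chains and bile acid precursors, went from 10 to 921 counts (log2 fold change 6.68, SE 0.36), and Ddo, the peroxisomal oxidase of aspartate, rose by 5.57 (SE 0.13). Acacb, which makes malonyl-CoA, rose by 3.16 (SE 0.076), and Mlycd, which removes it by decarboxylation, rose by 2.80 (SE 0.12). The list does not hold every gene that acts on malonyl-CoA. Slc25a20, the carnitine carrier of the inner membrane between the Cpt1 and Cpt2 steps, rose by 1.91 (SE 0.099).

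Ether lipid genes of that list moved in different directions. Far1 and Far2, which make fatty alcohols for ether lipids on the peroxisome, fell by 1.14 (SE 0.14) and 0.99 (SE 0.29). Agps, the next enzyme of ether lipid synthesis, fell by 0.55 (SE 0.15, edgeR adjusted p = 0.0076), a call that 1 of 15 alternatives did not give. Gnpat, which makes the acyl precursor for it, rose by 4.02 (SE 0.086), from 42.9 ± 1.55 to 697.7 ± 36.2 CPM (SD, n = 3). Among those not called, the adenine nucleotide carrier gene Slc25a17 measured 37.8 ± 1.11 and 43.8 ± 4.61 CPM (log2 fold change 0.21). Slc25a17 was called higher in 6 of 15 alternatives and lower in 2, among them limma on log2(TPM + 1) (-0.36). Mpv17 measured 43.2 ± 3.36 and 47.9 ± 6.20 CPM and the fission gene Dnm1l 97.9 ± 6.96 and 106.1 ± 19.8 CPM (SD, n = 3).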

How the data were processed

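The authors deposited 1 gene table per library with, per the file headers, effective length, expected count, TPM and FPKM, the layout of RSEM. RSEM, Bowtie, Bowtie2 and DESeq2 with GRCm38 and mm10 are named in the submitters' processing notes, without versions or roles. The deposited expected counts are estimates not scaled between libraries, and TPM is a value per length that the authors scaled to 1 total in every library. Effective lengths, deposited in a further column, served in 1 alternative and to describe lengths. FPKM was not used here. Strandedness is not given in the sources used here, so a gene and its antisense partner cannot be told apart. Identifiers without version were matched to GENCODE M21, 54723 of 54752.

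Expected counts were rounded to whole numbers, filtered with filterByExpr and tested with edgeR 4.0.16 (R 4.3.3, quasi-likelihood, TMM, group as the only term). Genes with very few preadipocyte counts, among them Ehhadh, Acaa1b, Acox2, Ppara and Acta1, passed this filter only through the adipocyte libraries. For such genes the direction was all but fixed in advance. Limma 3.58.1 and DESeq2 1.42.0 served as alternatives. The edgeR step was tested on simulated data in which only a small part of the genes changed, unlike in these libraries. That simulation therefore does not test the choice of scaling. CPM uses TMM-scaled library sizes, errors are SDs or standard errors of fitted log2 values, and a floor of 3 counts over a group is 0.0383 CPM (preadipocytes) or 0.0443 CPM (adipocytes). Deviations from group means correlated at 0.659, 0.301 and 0.265 for same-numbered libraries, each over the limit of 0.1 for pairing. Preadipocyte library 2 correlated more with adipocyte library 3, at 0.446, and preadipocyte library 3 with adipocyte library 2 reached 0.164, so the pairing is not clear-cut, and the replicate number was fitted as a block in an alternative.

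The members and lists were chosen with earlier results of these data known. By the naming rule, each class is given with its 3 largest rises, its 2 most abundant genes and every gene that fell or was not called or not tested, and the other list with its 3 largest changes each way and those not called. Of the genes this rule names, 2 of the other list are not reported here. Further genes were named after their values were seen. The estrogen-related receptor element was added after the files were seen, and the search for 1 more element added then is not reported here. Promoters were matched by symbol for 41 of 50 members. Protein sequences were not analysed here.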

Additional observations from a re-analysis of the deposited data

How the results depend on the processing

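Of the 49 tested members, 44 kept their direction and their side of the threshold under all 15 alternatives. The other 5 were Cpt1b, Crot, Decr2, Pecr and Pex26. Cpt1b, not called in any setting, turned to -0.14 with total counts, -0.26 with limma on log2(TPM + 1) and -0.41 with limma on log2(TPM + 0.1). Crot turned to -0.15 with limma at either pseudocount, Decr2 to -0.018 with total counts and to -0.24 and -0.25 with limma, and Pex26 to -0.17 and -0.18 with limma. With limma 1 peroxisomal enzyme, Decr2, was lower, where TMM gave 0. Members called higher numbered 42 with limma, 43 with total counts or upper-quartile factors, and 45 or 46 when each library was left out in turn. With the replicate block the 46 higher and 2 lower calls held for members, 20 and 2 for mitochondrial enzymes, 14 and 0 for peroxisomal enzymes, and 12 and 0 for peroxins. The difference in the Cpt1b share ran from 9.47 to 12.7 percentage points without single libraries. Depth limited Slc27a2 and the preadipocyte levels of Ehhadh and Acaa1b.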

Other observations

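Some regulators known to act on genes of this pathway were also higher in adipocytes, and a link between them and the members was not tested. Ppara, the nuclear receptor best known for inducing fatty acid oxidation in liver, had 7 counts in the preadipocyte libraries together and measured 2.62 ± 0.082 CPM in adipocytes (SD, n = 3; log2 fold change 4.80, SE 0.28, edgeR adjusted p = 5e-07). The coactivator gene Ppargc1b rose from 1.41 ± 0.13 to 48.9 ± 1.91 CPM and Ppargc1a from 25.4 ± 1.55 to 59.0 ± 5.31 CPM (SD, n = 3). Pxmp2, a channel protein of the peroxisomal membrane, rose from 0.954 ± 0.346 to 44.9 ± 8.60 CPM (SD, n = 3).

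The mean effective length of a gene moves with the mix of its transcripts. It enters the TPM values but not the CPM values or the main edgeR fit. It was 0.82 times as long in adipocytes for Pex13, though with overlap between the groups, and 1.13 times as long for Acad12, 0.90 times for Acaa1a, 0.91 times for Crat and 0.92 times for Acad9, each without overlap. With the effective length as an offset the calls numbered 46 higher and 2 lower as before.

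Within a group the libraries did not share their extremes evenly. Preadipocyte library 1 held the highest CPM of its group for 30 of 49 members, and adipocyte library 1 for 26 of 49. The median coefficient of variation of members was 6.92% in preadipocytes and 7.44% in adipocytes, against 8.30% and 10.6% for all tested genes of at least 1 CPM. Pex16 varied most among members in adipocytes, at 22.9%.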
